A study of Mus musculus with 9 samples.

Results

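The 10 genes described here encode regulators of the BCL2 family, the proteins that decide at the mitochondrial outer membrane whether a cell enters apoptosis. They were chosen by name as members of the family, their symbols were matched to Entrez identifiers through RefSeq, and all 10 were found among the 18755 genes counted. By role they fall into 3 antiapoptotic genes (Bcl2, Bcl2l1 and Mcl1), 2 effectors (Bax and Bak1) and 5 BH3-only genes (Bid, Bcl2l11, Bbc3, Pmaip1 and Bik). RNA was sequenced from primary tumors of 4T1, a mammary carcinoma cell line of BALB/c origin that metastasizes readily, grown in the mammary fat pad of female BALB/c mice aged 6 to 10 weeks at injection. The inhibitor BI 853520 (BI), which blocks focal adhesion kinase (FAK), was given at 50 mg/kg for 5 days from day 15 (6 tumors), and the controls received the 0.5% Natrosol vehicle alone (3 tumors). The labels number the 9 samples separately without saying that each came from its own mouse, so p-values measure the spread between these samples. All tumors came from the same cell line in hosts with an intact immune system, so each tumor piece held RNA of carcinoma cells and of host cells.

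Antiapoptotic BCL2 proteins hold the effectors BAX and BAK in check. BH3-only proteins relay stress signals by binding the antiapoptotic proteins or by activating the effectors directly, and active BAX and BAK permeabilize the outer membrane, which releases cytochrome c and starts the caspase cascade. Carcinoma cells often depend on MCL-1 or BCL-XL, the main product of Bcl2l1, for survival, and signals from matrix adhesion through FAK are known to oppose apoptosis after detachment. Many of these proteins are controlled by phosphorylation, cleavage or turnover, which RNA counts do not measure.

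The total count on genes ranged from 21727879 to 33850245 in the vehicle-treated tumors and from 16931607 to 22349873 in the BI-treated tumors. Expression is given as CPM, the count scaled to a common library size after TMM normalization, with the SD over tumors, and 13966 genes passed the filter on low counts. In these whole tumor pieces, fewer cells of a type and less RNA per cell cannot be told apart, and the marker genes of several cell types moved with treatment. A marker is said to rise or fall at an adjusted p of at most 0.05 in edgeR's test. Over all genes tested, 14.6% rose and 14.1% fell by this rule. The summed level of 10 epithelial markers was 958 to 1182 CPM with vehicle and 751 to 961 CPM with BI, and 2 of the 10 fell (Krt18 and Krt8) while 0 rose. Nearly all of this sum came from Krt8 and Krt18, and the list's median log2 fold change was -0.05. Among those that did not pass, Cldn3 was at 1.36 and Epcam at 1.06 (adjusted p = 0.0848 and 0.0987 from edgeR's test). In the other direction, Cldn4 was at -0.67 and Krt14 at -0.85 (adjusted p = 0.0939 and 0.329 from edgeR's test). These genes are named here after their values were seen. The summed level of 8 macrophage markers was 1625 to 2160 CPM with vehicle and 3216 to 3941 CPM with BI, led by Mrc1, and all 8 rose. The T cell markers summed to 71.4 to 78.2 CPM with vehicle and 128 to 183 CPM with BI, led by Cd8a, and 7 of 8 rose. The NK cell markers summed to 51.5 to 69.6 and 144 to 187 CPM, led by Gzmb, and all 7 rose. The summed level of 6 neutrophil markers was 523 to 753 CPM with vehicle and 221 to 372 CPM with BI, led by S100a9, and 4 of the 6 fell. Of the markers of other host cells, 5 of 6 for mast cells, 4 of 6 for dendritic cells and 3 of 6 for endothelial cells rose. So did 2 of the 4 tested for B cells, 1 of 7 for fibroblasts and 1 of 6 for adipocytes. The counts for epithelial cells, fibroblasts and adipocytes were near the share over all genes tested. For erythroid cells and skeletal muscle, 0 rose and 0 fell. No marker of these lists was at 0 in all tumors. Their part in the differences of the BCL2 family genes was not tested.

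The antiapoptotic gene Bcl2l1 fell in the BI-treated tumors, and the antiapoptotic gene Mcl1 and the BH3-only gene Pmaip1 rose. The other 7 genes did not pass the test. Bcl2l1 fell by 28.1%, Mcl1 rose by 15.8% and Pmaip1 by 31.9%. The quasi-likelihood test of edgeR, with Benjamini-Hochberg adjustment over all genes tested and a limit of 0.05 on the adjusted p, called 1 of 10 genes lower and 2 higher. Over the 13966 genes tested, 14.1% were lower and 14.6% higher by this rule, 28.7% in all, so the number of BCL2 family genes called was close to the background. At the cutoffs of the study, an unadjusted p of at most 0.05 and a change of at least 1.5-fold, edgeR's test called 0 of the 10 genes, against 13.1% of all genes tested (3.57% lower and 9.57% higher). Likewise 0 were called at these cutoffs by edgeR's likelihood ratio test, DESeq2 and limma-voom, and 4 of the 10 had an unadjusted p of at most 0.05 in edgeR, against 40.7% of all genes tested. In 1 gene every BI-treated tumor lay below every vehicle-treated tumor (background 14%), and in 2 genes every one lay above (background 14.1%).

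**Figure D1:**
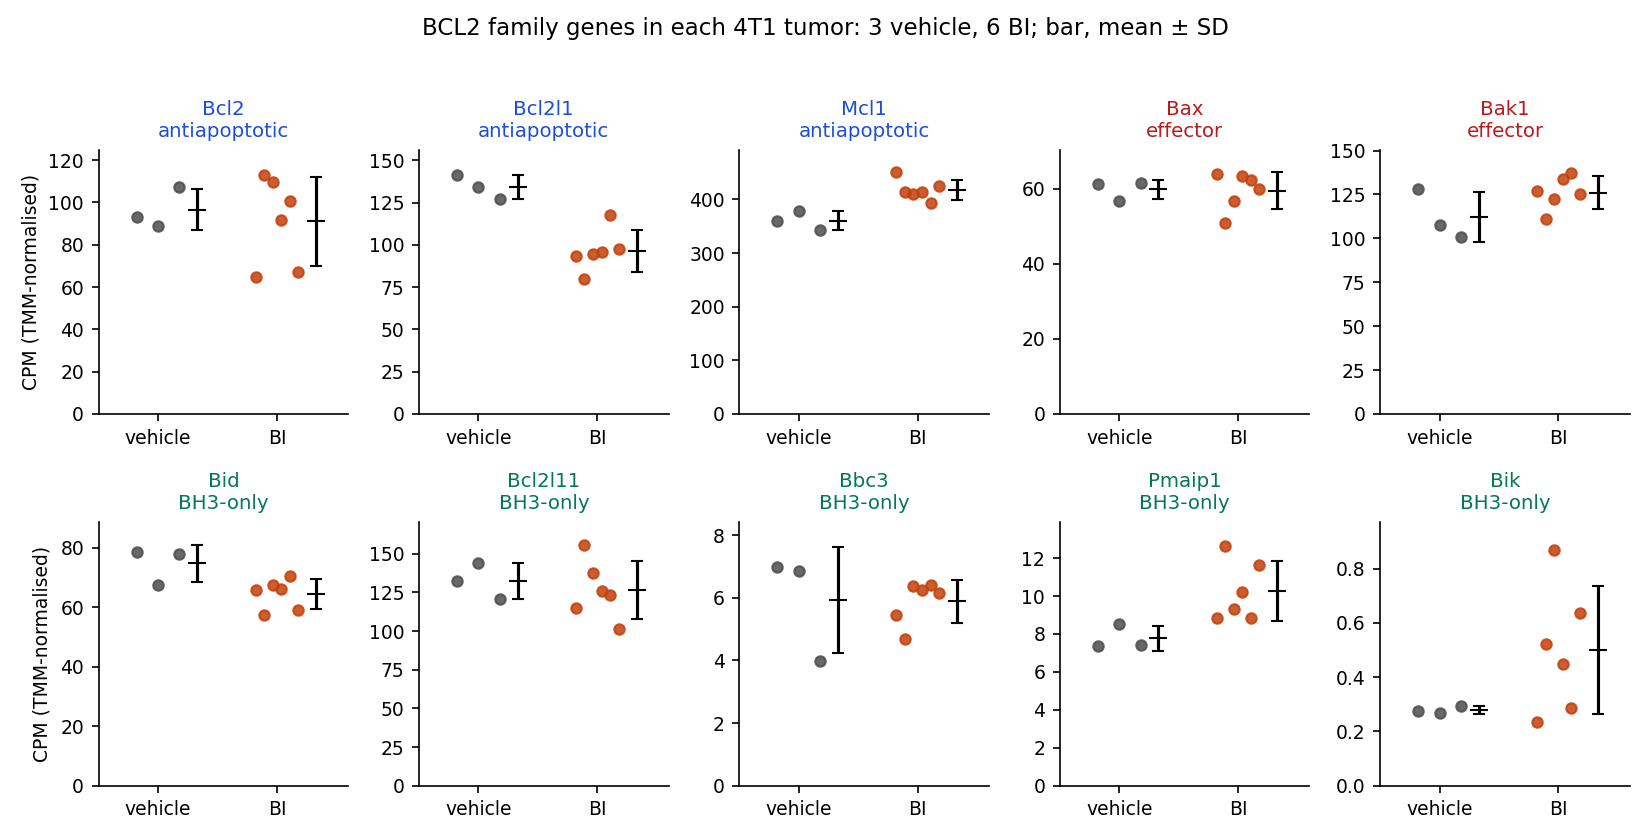
Normalised expression (CPM, vertical axes from 0) of the 10 BCL2 family genes in each tumor; points are tumors (3 vehicle in gray, 6 BI in orange) and the bars give mean ± SD. Bcl2l1 is the gene with all BI-treated tumors below the vehicle-treated ones (79.8 to 118 against 127 to 142 CPM), and Mcl1 and Pmaip1 are the genes with all of them above.

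Levels of different genes were compared per length, as CPM divided by the deposited gene length in kilobases (RPKM). Mcl1 was the most abundant of the 10 in all 9 tumors, with 98.6 to 129 RPKM, a level above that of 96.1% of the genes tested. Bax followed with 58.7 to 73.6 RPKM, also in all 9 tumors. Bak1 (50.2 to 68.6 RPKM) and Bcl2l1 (33.7 to 59.7 RPKM) came next, and Bak1 exceeded Bcl2l1 in 7 of 9 tumors, so their order was not the same in each tumor. Bid (30.4 to 41.7 RPKM) exceeded Bcl2l11 (20.1 to 30.8 RPKM) in 8 of 9 tumors. Bcl2 was seventh in every tumor with 8.37 to 14.6 RPKM. The lowest levels were those of Pmaip1 (2.78 to 4.75 RPKM), Bbc3 (2.01 to 3.53 RPKM) and Bik (0.25 to 0.922 RPKM), and Pmaip1 exceeded Bbc3 in 7 of 9 tumors. In counts, Bik lay between 5 and 18 per tumor, so its values carry a large counting error.

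Among the antiapoptotic genes, Bcl2l1 and Mcl1 moved in opposite directions and Bcl2 showed no difference beyond its spread. Bcl2l1 (Entrez gene 12048) occupies mm9 chr2:152593052-152657464 (minus strand), with no exon shared with another annotated gene. It had 142, 134 and 127 CPM in the vehicle-treated tumors, and 79.8 to 118 CPM (median 95.3) in the BI-treated tumors. The groups did not overlap, and the highest BI-treated tumor, replicate 8, stayed below the lowest vehicle-treated tumor. The means were 134 ± 7.19 CPM (SD, n = 3) and 96.5 ± 12.3 CPM (n = 6), a log2 fold change of -0.48 (standard error 0.0938, 95% interval -0.68 to -0.27, adjusted p = 0.00313, edgeR). A two-sided exact permutation test, which has 84 ways to divide the tumors, gave p = 0.0238, its smallest possible value. Groups without overlap, as in 28.1% of all genes tested, reach this value by design, so it restates their separation. Under each alternative normalization, filter and test, and with each tumor left out in turn, Bcl2l1 stayed called, with log2 fold changes from -0.53 to -0.43.

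Mcl1 (Entrez gene 17210) encodes a short-lived antiapoptotic protein and occupies chr3:95462643-95467099 (plus strand), with no shared exon. It had 360, 378 and 344 CPM in the vehicle-treated tumors and 393 to 451 CPM (median 413) in the BI-treated tumors. All 6 BI-treated tumors lay above the vehicle-treated ones, with the smallest gap between vehicle replicate 2 and BI replicate 8. The means were 361 ± 17.4 CPM (SD, n = 3) and 418 ± 19.3 CPM (n = 6), a log2 fold change of 0.21 (standard error 0.0606, 95% interval 0.08 to 0.34, adjusted p = 0.0222 from the same edgeR test). Its exact permutation p was 0.0238 (two-sided), also the smallest possible. The call was kept without vehicle replicate 2 (log2 fold change 0.25, adjusted p = 0.0303 in edgeR) and lost without vehicle replicate 1 or 3. Leaving out vehicle replicate 1 gave an adjusted p of 0.0743 in edgeR, and leaving out vehicle replicate 3 gave 0.109, with log2 fold changes of 0.21 and 0.18. In these fits the share of all genes called also fell, from 28.7% to 19.6% and 17.7%.

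Bcl2 (Entrez gene 12043), the founding member of the family, occupies chr1:108434755-108610851 (minus strand). Its exons overlap those of the noncoding D630008O14Rik on the other strand, and whether the counting used strand is not stated. It had 93.3, 88.7 and 107 CPM in the vehicle-treated tumors and 64.8 to 113 CPM (median 96.3) in the BI-treated tumors. BI replicates 4 and 9 were the lowest of all 9 tumors and BI replicates 5 and 6 the highest, so the BI-treated tumors enclosed the vehicle-treated ones. The log2 fold change was -0.08 (95% interval -0.45 to 0.28, adjusted p = 0.751 from edgeR's test), an interval that includes changes in either direction.

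Together the 3 antiapoptotic genes summed to between 166 and 177 RPKM in the vehicle-treated tumors and between 167 and 177 RPKM in the BI-treated tumors. Within this sum, Bcl2l1 made up 32.8% ± 1.13 (SD, n = 3) with vehicle and 23.6% ± 2.70 (n = 6) with BI. The share of Mcl1 was 59.0% to 61.5% with vehicle and 64.2% to 73.1% with BI, and that of Bcl2 was 6.49% to 8.35% and 4.73% to 8.77%. These shares follow from the levels above and describe RNA per length, not protein. The ratio of Bcl2l1 to Mcl1 RPKM was 0.521 to 0.578 with vehicle and 0.284 to 0.441 with BI.

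**Figure D2:**
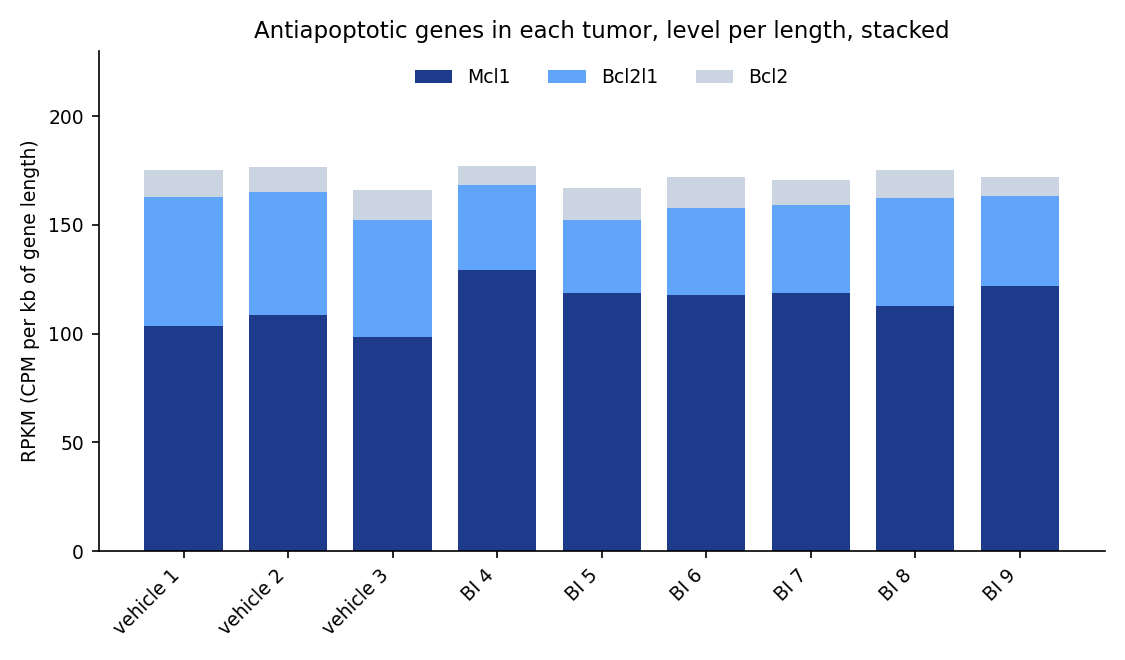
Level per length (RPKM, stacked bars from 0) of Mcl1, Bcl2l1 and Bcl2 in each of the 3 vehicle-treated and 6 BI-treated tumors. The total height lies between 166 and 177 RPKM in all 9 tumors, while the Bcl2l1 segment is shorter and the Mcl1 segment taller in each BI-treated tumor than in any vehicle-treated tumor.

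The sequences just upstream of the antiapoptotic genes that moved in opposite directions are shown because the counts give only a total for each gene, and their promoters differ in composition. RefSeq places 3 transcription starts in Bcl2l1 and 1 in Mcl1, and the counts do not tell the starts apart. The 250 bases before each start were taken from RefSeq (a GRCm38.p6 table) and placed on mm9 by an exact match, which was found for all 13 windows of the 8 family genes that the table holds. For Bcl2l1 the outermost start is printed (chr2:152657465-152657714, minus strand), and for Mcl1 its only start (chr3:95462393-95462642, plus strand). Capitals mark matches to any of 9 short motifs searched on both strands.
Bcl2l1: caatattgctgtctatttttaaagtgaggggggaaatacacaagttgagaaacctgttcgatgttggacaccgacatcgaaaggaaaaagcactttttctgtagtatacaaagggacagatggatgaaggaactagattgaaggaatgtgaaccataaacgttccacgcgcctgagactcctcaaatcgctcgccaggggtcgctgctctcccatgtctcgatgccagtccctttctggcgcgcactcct
Mcl1: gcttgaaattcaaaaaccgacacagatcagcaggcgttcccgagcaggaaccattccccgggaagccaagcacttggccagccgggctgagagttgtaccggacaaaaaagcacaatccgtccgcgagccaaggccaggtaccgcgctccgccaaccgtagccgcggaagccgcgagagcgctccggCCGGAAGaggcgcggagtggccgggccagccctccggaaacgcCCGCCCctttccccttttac
The motifs were the TATA box (TATAAA), the CCAAT box (CCAAT), the GC box (GGGCGG), an ETS site (CCGGAAG), the E-box (CACGTG), the CRE (TGACGTCA), a STAT site (TTCNNNGAA), an AP-1 site (TGANTCA) and an ATF4 site (TGATGNAA). The Mcl1 window held 1 GC box, found in 10727 of 32536 promoter windows of this length, and 1 ETS site, found in 6.95%. None of the 9 motifs was matched in the printed Bcl2l1 window or in those of its other starts. The share of G and C was 64.4% for Mcl1 and 47.6%, 53.2% and 48.4% for the starts of Bcl2l1. A match or its absence describes these letters alone and says nothing about which factors bind.

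Neither effector passed the test. Bax (Entrez gene 12028), at chr7:52717065-52722268 (minus strand), encodes the effector that moves from the cytosol to the mitochondrion when activated. It had 61.2, 56.9 and 61.5 CPM in the vehicle-treated tumors and 51.0 to 63.9 CPM (median 61.1) in the BI-treated tumors. The groups overlapped, and 3 BI-treated tumors exceeded the vehicle range while 2 lay under it. Its log2 fold change was -0.01 (standard error 0.0746, 95% interval -0.17 to 0.15, adjusted p = 0.943 from edgeR's test). Bak1 (Entrez gene 12018), at chr17:27156755-27165954 (minus strand), encodes the effector that resides in the outer membrane, and its exons overlap those of Ggnbp1 on the other strand. It had 128, 108 and 101 CPM with vehicle and 111 to 137 CPM (median 126) with BI. Vehicle replicate 1 lay within the range of the BI-treated tumors and the other two vehicle-treated tumors lay below all of them. The log2 fold change was 0.17 (standard error 0.0844, 95% interval -0.01 to 0.35, adjusted p = 0.15). Bak1 was called under 0 of 8 alternatives and in 1 of 9 fits with a tumor left out. That fit was without vehicle replicate 1, the highest of the vehicle-treated tumors, with a log2 fold change of 0.28 (adjusted p = 0.0391 in edgeR). Without vehicle replicate 3 the log2 fold change was 0.10 (adjusted p = 0.489 in edgeR).

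Of the 5 BH3-only genes, Pmaip1 rose and the other 4 did not pass the test. Pmaip1 (Entrez gene 58801) encodes NOXA, which binds MCL-1 and is known as a target of p53, and occupies chr18:66618258-66625204 (plus strand). It had 7.38, 8.54 and 7.40 CPM in the vehicle-treated tumors and 8.83 to 12.6 CPM (median 9.76) in the BI-treated tumors. The groups did not overlap, although BI replicates 4 and 8 lay close to vehicle replicate 2. The means were 7.77 ± 0.668 CPM (SD, n = 3) and 10.2 ± 1.58 CPM (n = 6), a log2 fold change of 0.40 (standard error 0.136, 95% interval 0.10 to 0.69, adjusted p = 0.0447 from edgeR's test, exact permutation p = 0.0238). Of the 9 fits with 1 tumor left out, 3 called Pmaip1, and its adjusted p in edgeR was 0.148 without vehicle replicate 3 and 0.138 without vehicle replicate 1. It was 0.0571 without vehicle replicate 2, and 0.0657, 0.0716 and 0.0759 without BI replicates 5, 7 and 9. The log2 fold change over these fits was 0.33 to 0.47. Of all genes tested, 17.7% to 21.7% were called without 1 vehicle-treated tumor and 23.8% to 28.6% without 1 BI-treated tumor.

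Bid (Entrez gene 12122), at chr6:120841948-120866871 (minus strand), encodes the BH3-only protein that caspase 8 cleaves and that links death receptors to mitochondria. Its exons overlap those of Bcl2l13 on the other strand, so without strand reads of either gene could be counted for both. It had 78.8, 67.5 and 78.1 CPM with vehicle and 57.4 to 70.7 CPM (median 66.0) with BI. In 4 of 6 BI-treated tumors Bid was below every vehicle-treated tumor, and vehicle replicate 2 lay within the BI range. The log2 fold change was -0.22 (standard error 0.0774, 95% interval -0.38 to -0.05) with an adjusted p of 0.0559 in edgeR. Bid was called under 2 of 8 alternatives and in 2 of 9 fits with a tumor left out. In these the adjusted p was 0.049 with edgeR's likelihood ratio test, 0.0485 with DESeq2, 0.0317 without vehicle replicate 2 and 0.0457 without BI replicate 8. In edgeR it was 0.194 without vehicle replicate 1 and 0.188 without vehicle replicate 3. Bcl2l13 itself had a log2 fold change of -0.11 (adjusted p = 0.170, edgeR).

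Bcl2l11 (Entrez gene 12125) encodes BIM, a BH3-only protein that binds all antiapoptotic members and is known to mediate apoptosis after loss of growth factors or of matrix contact. It occupies chr2:127951774-127988283 (plus strand). It had 133, 144 and 121 CPM in the vehicle-treated tumors and 101 to 155 CPM (median 125) in the BI-treated tumors. BI replicate 5 was the highest and BI replicate 9 the lowest of all tumors, and the log2 fold change was -0.07 (standard error 0.112, 95% interval -0.31 to 0.18, adjusted p = 0.693 from edgeR's test). Bbc3 (Entrez gene 170770), at chr7:16894965-16903554 (plus strand), encodes PUMA, another p53 target. It had 6.97, 6.84 and 3.98 CPM with vehicle and 4.69 to 6.39 CPM (median 6.20) with BI. The spread among the vehicle-treated tumors exceeded that among the BI-treated ones, which all lay inside the vehicle range, and the 95% interval of the log2 fold change was -0.44 to 0.44 (adjusted p = 1.00 from edgeR's test). Bik (Entrez gene 12124), at chr15:83357292-83375065 (plus strand), encodes a BH3-only protein of the endoplasmic reticulum. It had 0.28, 0.27 and 0.29 CPM with vehicle and 0.24 to 0.87 CPM (median 0.49) with BI, and 4 BI-treated tumors were above and 1 below the vehicle-treated ones. Its log2 fold change of 0.82 had a 95% interval from -0.13 to 1.77 (adjusted p = 0.181 from edgeR's test). Without BI replicate 4, its log2 fold change was 0.97 (unadjusted p = 0.0363 and adjusted p = 0.0999 in edgeR), which met the cutoffs of the study. Bik passed the filter on low counts only through BI-treated tumors, so this is no independent support for a rise. It was tested in 6 of the 9 fits with a tumor left out.

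**Figure D3:**
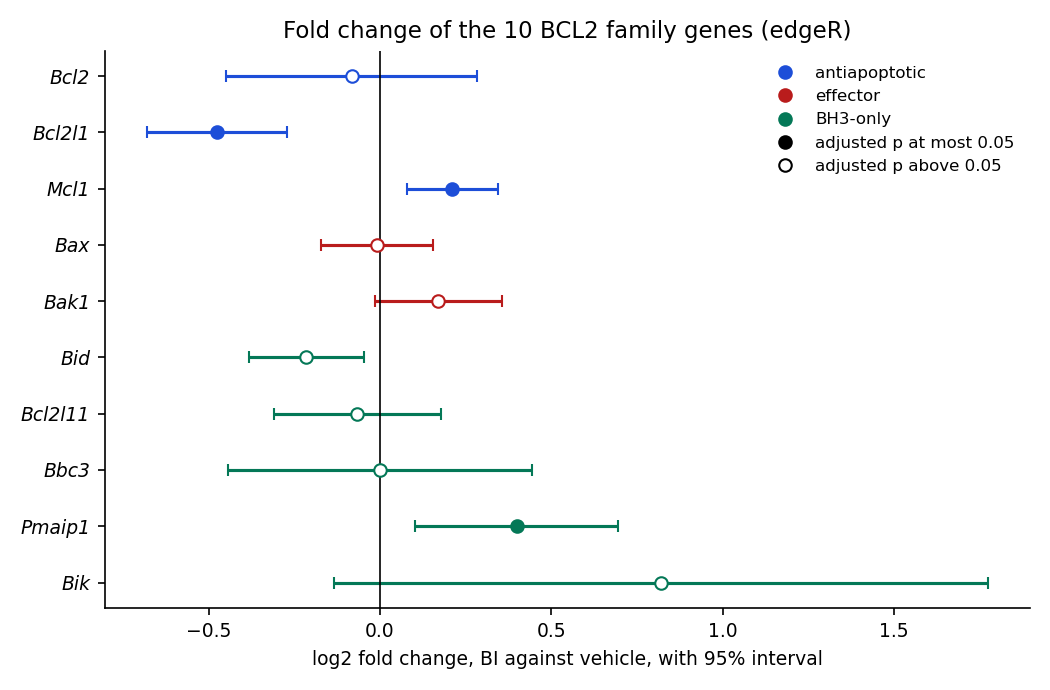
Log2 fold change of BI against vehicle with its 95% interval (horizontal axis) for the 10 BCL2 family genes, colored by role; filled points have an adjusted p of at most 0.05 in edgeR's quasi-likelihood test. Bcl2l1 at -0.48, Mcl1 at 0.21 and Pmaip1 at 0.40 are filled, and the interval of Bik is the widest.

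Set against the effectors, the level of Bcl2l1 was lower in each BI-treated tumor than in any vehicle-treated tumor. The ratio of Bcl2l1 to Bax RPKM was 0.758 to 0.864 with vehicle and 0.534 to 0.694 with BI, and that of Bcl2l1 to Bak1 was 0.934 to 1.07 and 0.605 to 0.725. The ratio of Bcl2l1 to Bcl2l11 overlapped between the groups, at 1.98 to 2.27 with vehicle and 1.09 to 2.05 with BI. The ratio of Mcl1 to Bax also overlapped, at 1.39 to 1.66 and 1.57 to 2.02. These ratios follow from the levels above and are given without a test. Within a tumor they do not depend on the normalization between tumors. The summed RPKM of the 5 BH3-only genes was 70.4 to 74.6 with vehicle and 59.5 to 70.8 with BI, most of it from Bid and Bcl2l11, and that of both effectors was 119 to 134 and 114 to 140.

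**Figure D4:**
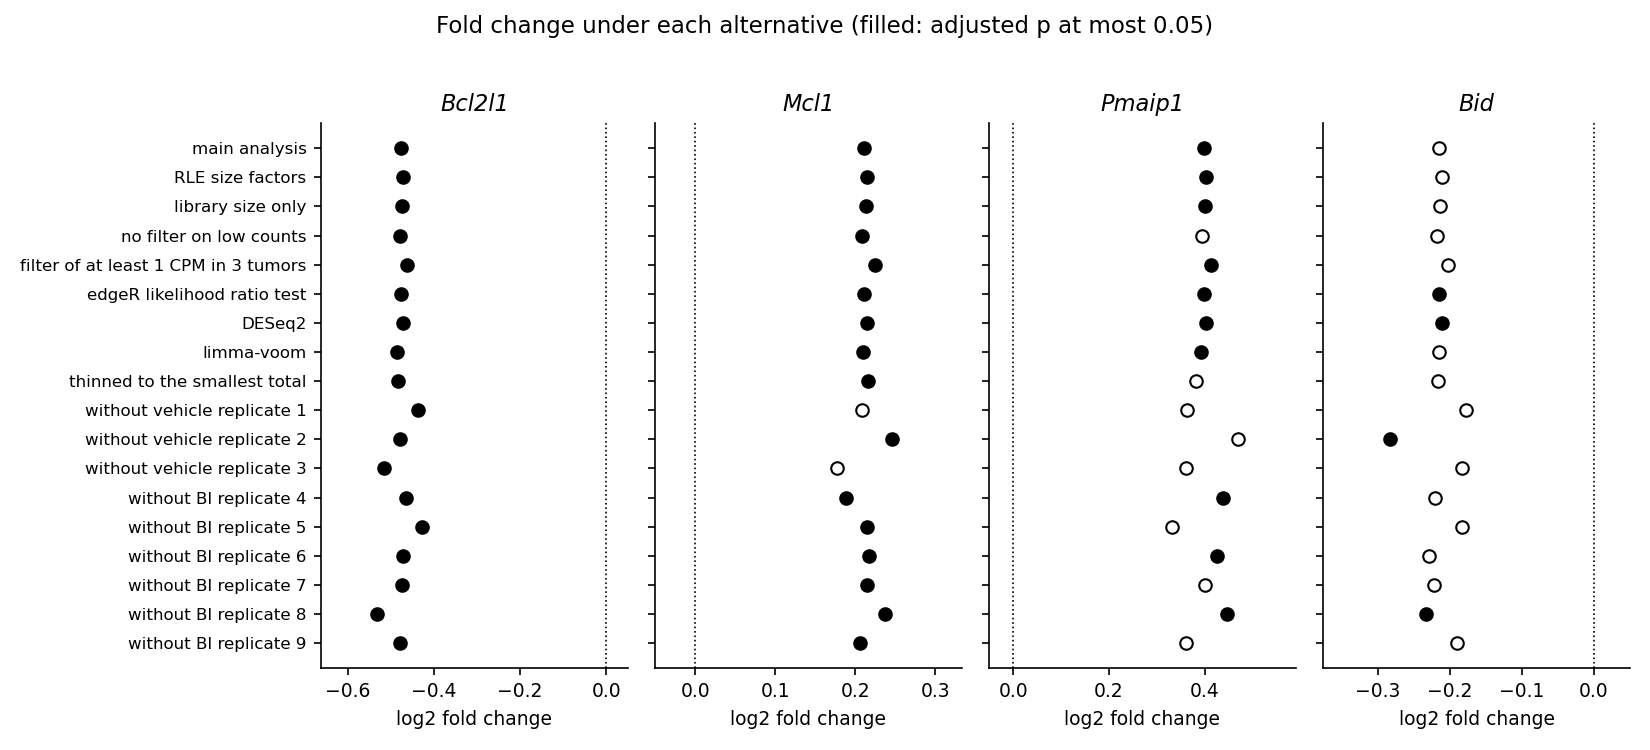
Log2 fold change of BI against vehicle (horizontal axes) for Bcl2l1, Mcl1, Pmaip1 and Bid under the main analysis, each alternative and each tumor left out (vertical axis); filled points have an adjusted p of at most 0.05. All points of Bcl2l1 are filled, whereas those of Mcl1 lose the call without vehicle replicate 1 or 3 and 3 of the 9 fits of Pmaip1 with a tumor left out keep it.

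Other members of the family and proteins of the outer membrane related to it were counted as a list of 15 genes, of which 13 were tested. Of these, 5 rose and 3 fell, where 14.6% of all genes tested rose and 14.1% fell, and the median log2 fold change was 0.04 beside -0.00371 over all genes tested. The genes that rose were Bcl2a1b, Bcl2a1d and Bcl2a1a, which encode copies of the antiapoptotic protein A1 of leukocytes, and the BH3-only genes Bad and Bmf. Bcl2a1b rose from 30.7 ± 2.58 CPM (SD, n = 3) to 44.8 ± 2.63 CPM (n = 6), a log2 fold change of 0.55 (adjusted p = 0.000299 from edgeR's test), with no overlap. The A1 copies are nearly identical and only uniquely aligned reads were counted, so the split among them is uncertain. The macrophage, T cell and NK cell markers given above rose in the same tumors, while 4 of 6 neutrophil markers fell. Their part in the rise of the A1 genes was not tested. Bad rose from 21.3 ± 1.28 to 26.5 ± 2.15 CPM without overlap (adjusted p = 0.0141 from edgeR's test). Bmf, which responds to loss of cell anchorage, rose from 8.01 ± 1.97 to 14.8 ± 5.57 CPM (log2 fold change 0.89, adjusted p = 0.0414), with 4 of 6 BI-treated tumors above every vehicle-treated tumor. Bnip3 and Bnip3l, hypoxia-induced genes of mitophagy, fell without overlap, with log2 fold changes of -0.68 and -0.53 (adjusted p = 0.00406 and 0.00022 from edgeR's test), and Bcl2l15 fell from 2.03 ± 0.726 to 0.931 ± 0.311 CPM. Bnip3 had the highest level per length of the list. Over all genes tested, 28.1% had groups without overlap, and naming genes because they were called favors such groups. With a tumor left out, between 2 and 4 of the 13 genes rose. The fewest rose without vehicle replicate 3, where 2 fell and 17.7% of all genes tested were called.

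Downstream of the mitochondria, the 15 genes of the apoptosome and caspase list included 0 that rose and 3 that fell, with a median log2 fold change of -0.01. Over all genes tested, 14.6% rose and 14.1% fell, 28.7% in all. The 3 were Aifm1, which encodes the apoptosis-inducing factor, and Vdac2 and Vdac1, the channel proteins of the outer membrane. Their log2 fold changes were -0.24, -0.15 and -0.21 (adjusted p = 0.0131, 0.0427 and 0.0459 from edgeR's test). Each had no overlap between the groups, as did 28.1% of all genes tested. Vdac2 had the highest level per length of this list, with 325 ± 7.41 CPM (SD, n = 3) and 292 ± 8.98 CPM (n = 6). None of the other 12 genes, among them the caspases, passed the test. Without vehicle replicate 3, where 17.7% of all genes tested were called, none of the 15 fell (0). With any other tumor left out 1 or 2 did. In the list of IAP proteins, which inhibit caspases, and their antagonists, 2 of 10 rose (Naip2 and Naip5, log2 fold changes 0.44 and 0.73) and 2 fell (Septin4 and Htra2, -0.54 and -0.21), with adjusted p from 0.00166 to 0.038, beside 14.6% of all genes tested that rose and 14.1% that fell. Naip2 and Naip5 encode closely related inflammasome sensors of bacterial proteins, and their reads may be split between copies. Htra2, a mitochondrial protease that antagonizes IAP proteins, had the highest level per length. With a tumor left out, 1 of the 10 fell, except without BI replicate 8, where 2 did.

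Among 14 death receptors, ligands and adaptors, 6 rose and 1 fell, with a median log2 fold change of 0.25, where 14.6% of all genes tested rose and 14.1% fell. Fasl, the ligand carried by cytotoxic lymphocytes, rose from 2.56 ± 0.293 CPM (SD, n = 3) to 4.91 ± 0.979 CPM (n = 6), a log2 fold change of 0.93 (adjusted p = 0.00365 from edgeR's test). Ripk3, the kinase of necroptosis, rose from 21.0 ± 1.53 to 31.5 ± 2.11 CPM (log2 fold change 0.59, adjusted p = 0.000317). Tnfrsf1a, a receptor of TNF and the gene with the highest level per length, rose from 140 ± 2.99 to 169 ± 8.86 CPM (log2 fold change 0.27, adjusted p = 0.0047). Tnfrsf10b, the TRAIL receptor and a target of p53 and of the stress factor CHOP, fell from 28.1 ± 0.772 to 17.5 ± 0.849 CPM (log2 fold change -0.69, adjusted p = 4.36e-05), and its groups lay far apart, at 27.2 to 28.7 CPM with vehicle and 16.6 to 18.7 CPM with BI. All 4 of these genes had groups that did not overlap, as did 28.1% of all genes tested. Tnfrsf10b, Ripk3 and Fasl were named for their small p, which favors groups without overlap.

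Upstream of the BH3-only genes, 3 lists of transcription factors and their targets were counted. Of 21 genes of the p53 list, which contains Bax, Bbc3 and Pmaip1, 5 rose, 1 fell and 15 did not pass, with a median log2 fold change of 0.06, and the 6 called were close to the 28.7% over all genes tested. The 5 were Btg2, Sesn1, Ccng1, Trp53inp1 and Pmaip1, with log2 fold changes of 0.57, 0.61, 0.17, 0.50 and 0.40, and the gene that fell was Tnfrsf10b. Bax had the highest level per length of this list. Tnfrsf10b is also on the death receptor list. Without vehicle replicate 1 or BI replicate 7, 2 of the 21 rose, where 19.6% and 23.8% of all genes tested were called. In the list of the integrated stress response, the pathway that raises ATF4 when protein synthesis is restrained, 7 of 9 genes fell and 0 rose, with a median log2 fold change of -0.47, where 14.1% of all genes tested fell. Asns, which encodes asparagine synthetase, fell from 45.1 ± 6.90 CPM (SD, n = 3) to 18.9 ± 4.34 CPM (n = 6), a log2 fold change of -1.25 (adjusted p = 0.000226 from edgeR's test). Chac1, a glutathione-degrading enzyme, fell from 11.7 ± 0.36 to 6.48 ± 1.32 CPM (log2 fold change -0.85, adjusted p = 0.00173), and Atf4 itself, highest per length in the list, from 200 ± 27.2 to 149 ± 9.12 CPM (log2 fold change -0.43, adjusted p = 0.00273). The groups of Asns, Chac1 and Atf4 did not overlap, as in 28.1% of all genes tested. Asns and Chac1 were named for their small p.

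Of 12 FOXO factors and targets, a list that contains Bcl2l11 and Bbc3, 3 rose and 2 fell, with a median log2 fold change of -0.03, beside 28.7% of all genes tested that were called in either direction. Foxo1 rose from 71.8 ± 7.21 CPM (SD, n = 3) to 121 ± 31.7 CPM (n = 6), a log2 fold change of 0.75 (adjusted p = 0.00976 from edgeR's test), Txnip from 239 ± 14.8 to 352 ± 45.6 CPM (0.56, adjusted p = 0.00211) and Klf2 from 51.1 ± 7.53 to 72.7 ± 14.8 CPM (0.51, adjusted p = 0.0297). Ccng2 and Cited2 fell, with log2 fold changes of -0.72 and -0.71 (adjusted p = 1.86e-05 and 3.68e-05 from edgeR's test). The groups of Foxo1, Txnip, Ccng2 and Cited2 did not overlap, as in 28.1% of all genes tested, and those of Klf2 did. All of these were named because they were called, which favors groups without overlap. Gadd45a, highest per length in the list, had 274 ± 98.2 and 356 ± 42.1 CPM and did not pass (adjusted p = 0.12).

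**Figure D5:**
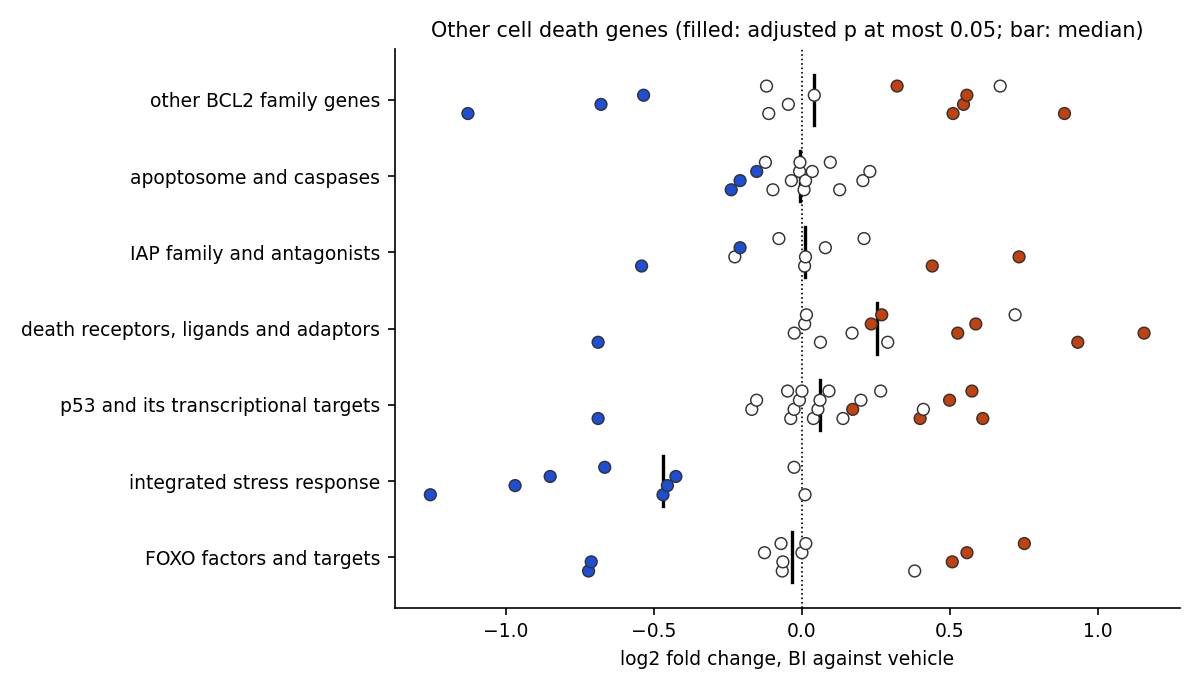
Log2 fold change of BI against vehicle (horizontal axis) for each gene tested of 7 lists of cell death genes (vertical axis); filled points have an adjusted p of at most 0.05 in edgeR's test, orange higher and blue lower, and the vertical bar is the list's median. The median of the integrated stress response lies at -0.47 and that of the death receptor list at 0.25, while the other 5 lie between -0.03 and 0.06.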

How the data were processed

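The authors aligned paired-end reads to mm9 with STAR, keeping unique hits, and counted with QuasR, for each RefSeq gene, reads that begin in one of its exons. The deposited values are raw counts without normalization, with a length for each gene. Whether strand and both mates were used is not given in the sources used here.

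Symbols came from RefSeq by Entrez identifier, and mm9 positions from GENCODE by symbol. Of the 196 list entries, 195 matched a gene. Counts were tested in R 4.3.3 with edgeR 4.0.16 (TMM, filterByExpr at min.count 10 and min.total.count 15, quasi-likelihood F test between BI and vehicle, Benjamini-Hochberg adjustment over 13966 genes). Standard errors were derived from the F statistic. RPKM are TMM-normalised CPM per kilobase of deposited length. Exact permutation tests covered 84 divisions of the tumors, two-sided. A floor of 3 counts corresponds to 0.0886 to 0.177 CPM, covering counting error only. Each sample entered as 1 replicate of its group. The test was checked on simulated counts. The genes changed there had larger differences than the family genes called here, so the check does not cover the latter.

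All 10 family genes, the genes called in each other list (the 2 with the smallest p in a direction where over 5 were called) and its most abundant gene were named. Members and lists were chosen with earlier results of these data known. Alternatives were RLE and library size scaling, other filters, edgeR's likelihood ratio test, DESeq2 1.42.0, limma-voom (limma 3.58.1), an adjusted p of 0.1, ordering by CPM, and leaving out each tumor, while thinning to the smallest total was added after seeing the data.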

Additional observations from a re-analysis of the deposited data

How the results depend on the processing

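Bcl2l1 was called lower under all 8 alternatives and with each of the 9 tumors left out, Mcl1 was called higher under all 8 and in 7 of 9, and Pmaip1 in 6 of 8 and 3 of 9. Fits with a tumor left out called fewer genes in general. Of all genes tested, 17.7% to 21.7% were called without 1 vehicle-treated tumor and 23.8% to 28.6% without 1 BI-treated tumor, against 28.7% with all tumors. The number of family genes called lower went from 1 to 2, by the addition of Bid, with the likelihood ratio test and DESeq2, and was 2 at an adjusted p of 0.1. The number called higher went from 2 to 1, by the loss of Pmaip1, without a filter (adjusted p = 0.0531, edgeR) and after thinning to the smallest total (0.0704). With a tumor left out, 1 to 2 were lower and 0 to 2 higher, and 1 to 2 were lower and 2 to 3 higher without overlap. At the study's cutoffs 0 to 1 were higher (Bik, without BI replicate 4). Bik passed the filter on low counts only through BI-treated tumors and was tested in 6 of these 9 fits. Ordering by CPM in place of RPKM kept 6 of 10 genes at their rank.

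Near a log2 fold change of 0, directions turned. Bbc3 was at 0.00342 with RLE factors, 0.00239 with library sizes, 0.0134 with the 1 CPM filter, 0.00302 with DESeq2 and 0.0930 with limma-voom, and at -0.23 to 0.13 with a tumor left out. Bax was at 0.00454 with the 1 CPM filter, 0.00750 thinned and -0.0447 to 0.0325 with a tumor left out, and Bcl2 at -0.15 to 0.0018.

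Of the other lists, the apoptosome and caspase genes called lower numbered 1 with library sizes, without a filter and with the 1 CPM filter, and 0 to 2 with a tumor left out, and 1 was higher with the 1 CPM filter and thinned (0 to 1 with a tumor left out). The IAP list had 0 lower thinned and 1 to 2 with a tumor left out. The p53 list had 3 higher without a filter and 2 lower with DESeq2, and 2 to 5 higher and 1 to 2 lower with a tumor left out. Other BCL2 family genes called higher numbered 2 to 4 with a tumor left out. The cause was not tested. The labels give the groups no shared replicate numbers. No paired analysis was possible because the replicate numbers of the groups do not repeat.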
